A study of Mus musculus with 23 samples.

Results

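The 10 genes described here encode core proteins of the neuromuscular junction. They were found by matching their symbols to the Ensembl gene IDs of the count table, of which there were 55573. They are the muscle acetylcholine receptor subunits Chrna1, Chrnb1, Chrnd, Chrne and Chrng, and the genes of the agrin pathway, Agrn, Lrp4, Musk, Dok7 and Rapsn. RNA of the quadriceps was sequenced from C57Bl6 mice aged 8 to 10 weeks that had carried a slow-release pellet under the skin for 14 days and were fasted for 5 h before the muscle was taken. The pellet held 50 mg corticosterone, the main glucocorticoid of mice, with 50 mg cholesterol, or 100 mg cholesterol as the vehicle. The groups were 6 vehicle-treated female mice, 5 corticosterone-treated female mice, 6 vehicle-treated male mice and 6 corticosterone-treated male mice, each named here by its sex and number, as F4 or M2. The labels name no transgene or deletion. The 10 genes were followed to see how their level varied between mice, whether it changed with corticosterone in each sex, and whether the sexes differed.

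At the neuromuscular junction the motor nerve releases agrin, which binds the receptor Lrp4 on the muscle fiber and activates the receptor tyrosine kinase MuSK. Dok7 binds MuSK inside the fiber and sustains its activity, and rapsyn, the product of Rapsn, anchors acetylcholine receptors in dense clusters under the nerve ending. The adult receptor of muscle contains the alpha, beta, delta and epsilon subunits, while the gamma subunit takes the place of epsilon in fetal and denervated muscle. Nuclei beneath the nerve ending transcribe these genes at a higher rate than the other nuclei of the fiber, so a piece of muscle holds few of the nuclei that contribute most.

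The promoters of Musk and of 3 receptor subunits are shown because the results below turn on these genes. Each line gives the 150 bases upstream of the RefSeq start on GRCm38.p6, read on the strand of the gene, with matches to an E-box (CANNTG, the site of myogenic factors) or an N-box (CCGGAA, the site of ETS factors) in capitals.
Musk (chr4:58285812-58285961, plus strand): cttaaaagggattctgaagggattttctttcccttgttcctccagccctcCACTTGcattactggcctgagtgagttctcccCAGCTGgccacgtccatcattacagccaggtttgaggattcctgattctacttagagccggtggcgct
Chrnb1 (chr11:69795938-69796087, minus strand): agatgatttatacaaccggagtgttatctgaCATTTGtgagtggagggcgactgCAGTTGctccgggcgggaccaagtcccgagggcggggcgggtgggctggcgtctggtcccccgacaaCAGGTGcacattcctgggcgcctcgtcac
Chrne (chr11:70619195-70619344, minus strand): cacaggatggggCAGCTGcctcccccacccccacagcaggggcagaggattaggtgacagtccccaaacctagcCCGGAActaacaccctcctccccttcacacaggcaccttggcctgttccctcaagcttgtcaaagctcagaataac
Chrna1 (chr2:73580339-73580488, minus strand): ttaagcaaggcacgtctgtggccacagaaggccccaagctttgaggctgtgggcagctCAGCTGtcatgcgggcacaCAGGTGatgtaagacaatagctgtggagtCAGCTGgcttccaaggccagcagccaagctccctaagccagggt
Both strands were searched. Musk held 2 E-boxes, Chrnb1 3, Chrne 1 and Chrna1 3, and 47.7% of the 32851 promoters of the same length in the RefSeq table held at least 1. The form CAGCTG, which is part of the E-box count, was present in Musk, Chrne and Chrna1 and in 8.39% of all promoters. The N-box was found in Chrne, 76 to 71 bases before its start, and in 9.23% of all promoters. The letters AGAACA, found in glucocorticoid response elements, present in 9.62% of all promoters, did not occur in these windows. Of the window bases, 2 in Musk, 6 in Chrnb1, 22 in Chrne and 0 in Chrna1 lie in exons of the GENCODE annotation. Promoters were on hand for 7 of the 10 genes. These matches describe the letters of the sequence and do not show that a factor binds there.

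Each mouse had between 20904150 and 21984477 counts on genes, and TMM normalization factors ranged from 0.832 to 1.21. Levels are given in CPM, counts relative to the TMM-scaled size of the library. Of the 10 genes, 9 passed the filter on low counts, and Chrng did not. The tissue matched its label, with mean levels of 18700 to 28600 CPM for Ckm and of 34000 to 40700 CPM for Acta1, the muscle creatine kinase and skeletal alpha-actin, in the 4 groups. Fkbp5, a target of the glucocorticoid receptor, was higher with corticosterone by 3.36 in log2 fold change (log2FC) in males (SE 0.30, adjusted p = 6.74e-08) and by 3.05 in females (SE 0.31, adjusted p = 1.77e-06). Of 9 markers of motor neurons 0 passed the filter, their summed level was at most 2.03 CPM in any mouse, and 3 or 4 of them had no read in a whole group. Of 9 Schwann cell markers 8 passed, and their summed level ranged from 75.5 to 229 CPM in vehicle-treated females, 94.1 to 310 in corticosterone-treated females, 45.5 to 116 in vehicle-treated males and 46.4 to 99.1 in corticosterone-treated males. Some libraries stood apart by markers of other tissues. The 7 adipocyte markers summed to 270 to 6900 CPM in corticosterone-treated females against 282 to 2590 in vehicle-treated females, and to 219 to 1000 CPM in vehicle-treated and 289 to 923 CPM in corticosterone-treated males. The hepatocyte markers (6 of 7 matched) summed to 31.4 to 300 CPM in vehicle-treated and 38.1 to 2340 CPM in corticosterone-treated females, and to 15.2 to 1410 and 37.1 to 2370 CPM in males, with over 1000 CPM in F6, F10, M8, M9 and M12. Of 5 erythrocyte markers, 4 were higher with corticosterone in each sex, and their summed level ranged from 84.9 to 398 CPM in vehicle-treated and 293 to 602 CPM in corticosterone-treated females, and from 104 to 204 and 189 to 674 CPM in males. Of 5 fibroblast markers, 3 were lower in males and 1 in females, and their sum had a median of 1060 CPM and a maximum of 1190 CPM in vehicle-treated males and ranged from 341 to 501 CPM in corticosterone-treated males, without overlap. In females it ranged from 747 to 1510 CPM with vehicle and from 510 to 983 CPM with corticosterone. The 6 slow fiber markers ranged from 1.22 CPM in M9 to 4560 CPM in F3, and M5, with 3940 CPM, was the highest of the males. Outside the motor neuron list, no matched marker had 0 reads in a whole group. The part of erythrocytes, fibroblasts and slow fibers in the results was not tested. Below, results without the mice high in hepatocyte or adipocyte markers are given for Musk, Chrnb1, Lrp4 and Dok7, but not for every gene. The mice over 2000 CPM of adipocyte markers (F2, F3, F5, F6, F10) were all female, so leaving them out removed no male.

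Compared per length, over all 23 mice, Rapsn had the highest level of the 10 genes, with a median of 15.5 CPM per kb of exon, followed by Chrnb1 (11.9) and Chrne (8.44). Musk (4.50), Chrna1 (3.85) and Dok7 (3.73) lay close together. Agrn (1.60), Lrp4 (0.857) and Chrnd (0.582) were lower. Chrng, the fetal subunit, was near 0 with 0.0117 CPM per kb. The ranges over mice of neighbours in this order overlapped throughout. The order was not the same in every group. With corticosterone the median of Chrnb1 exceeded that of Rapsn, with 14.6 against 13.2 CPM per kb in females and 19.9 against 18 in males, and that of Musk exceeded that of Chrne, with 4.50 against 4.25 in females and 10.6 against 4.17 in males. In bulk muscle, fewer cells or nuclei of a kind and less RNA in each cannot be told apart.

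**Figure D1:**
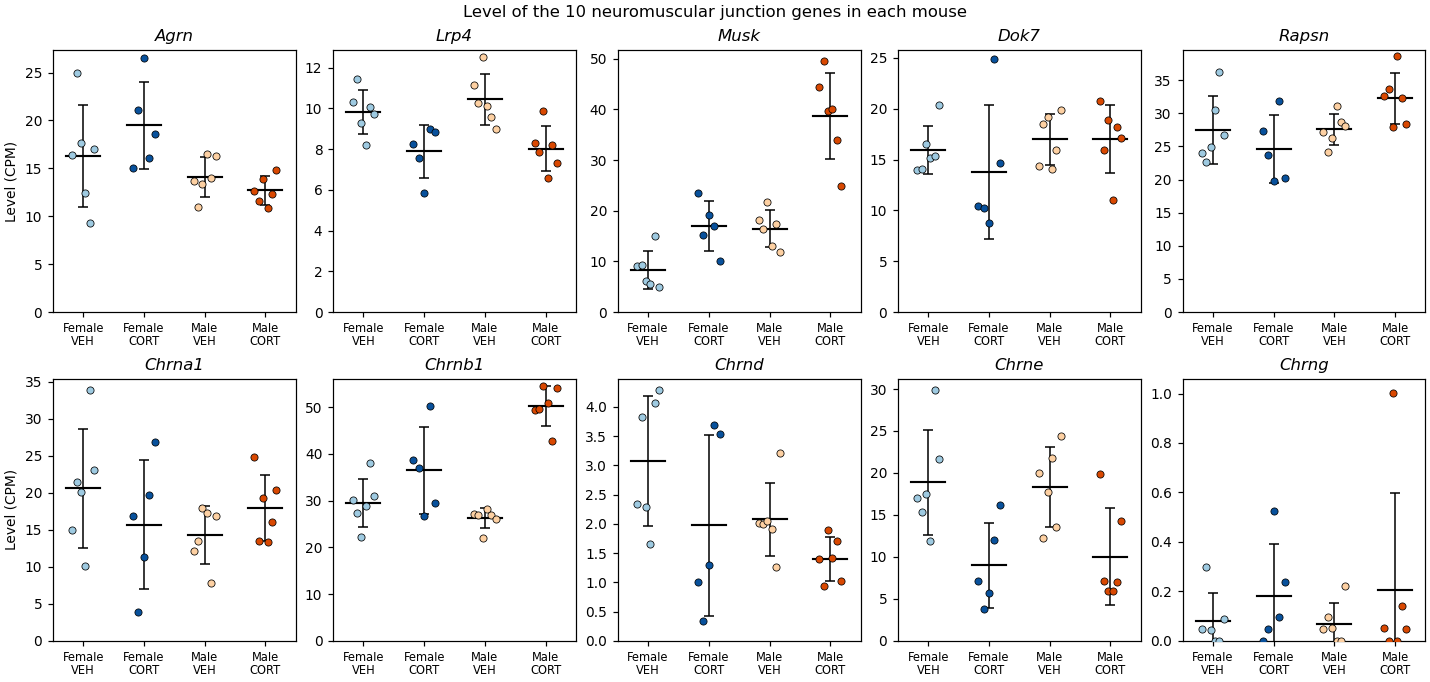
Level in CPM (vertical axes, linear and from 0) of each of the 10 genes in the 4 groups, with 1 point for each mouse, a line at the mean and bars of 1 SD. In Musk and Chrnb1 all 6 corticosterone-treated males lie above all 6 vehicle-treated males. In Chrne the corticosterone-treated mice lie below all vehicle-treated mice of their sex, except M2, M12, F8 and F10, which lie within their range. SD bars of Chrng that would pass below 0 end at the axis.

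In male mice, 2 of the 9 genes tested rose with corticosterone, Musk and Chrnb1, and 0 fell at an adjusted p under 0.01 by edgeR's quasi-likelihood test. Among all 13049 genes tested, 13.2% rose and 13.1% fell. The groups did not overlap for 2 of the 9 genes in the upward direction and for 0 in the downward direction, against 10.8% and 11.1% of all genes. These counts are too small to set the list apart from other genes, and the results below concern single genes. The median log2FC of the 9 genes was 0.00 and the median size 0.38, against -0.02 and 0.29 over all genes. Of the 9 genes, 4 had an unadjusted p under 0.05, namely Musk, Chrnb1, Chrne and Lrp4. DESeq2 and limma-voom each called 1 gene lower, Lrp4 by DESeq2 and Chrne by limma-voom.

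In female mice, 1 of the 9 genes rose, Musk, and 0 fell by edgeR, against 7.4% and 6% of all genes. No gene of the 9 had groups that did not overlap in either direction, against 3.38% upward and 4.34% downward among all genes. The median log2FC was -0.21 and the median size 0.32, compared with 0.04 and 0.23 over all genes. The same 4 genes as in males had an unadjusted p under 0.05. No gene of the 9 was called lower in females by DESeq2 or limma-voom.

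**Figure D2:**
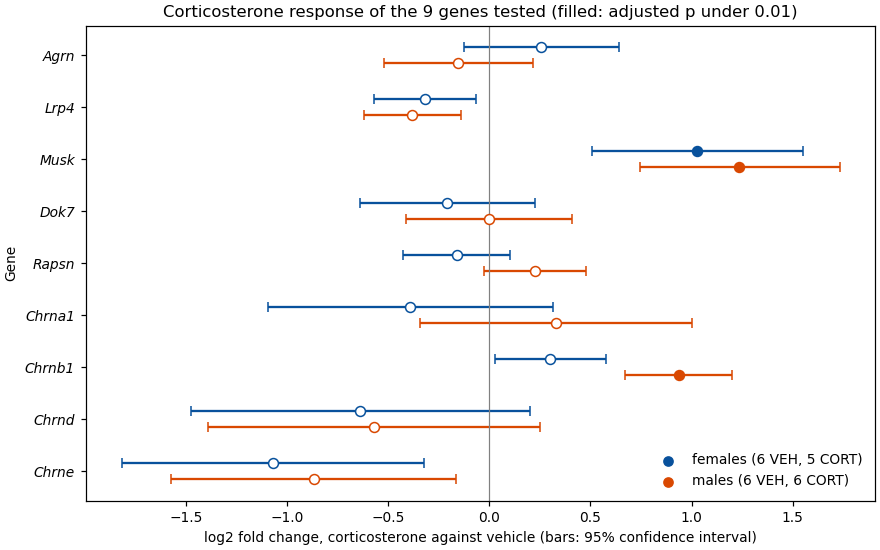
The log2 fold change of corticosterone-treated against vehicle-treated mice (horizontal axis) with its 95% confidence interval for the 9 genes tested, in females (blue) and males (orange), with filled points for an adjusted p under 0.01. Musk is filled in both sexes and Chrnb1 in males, and the intervals of Chrne and Lrp4 lie below 0 in both sexes without passing the adjusted threshold.

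Musk encodes the kinase on which the assembly of the junction depends (ENSMUSG00000057280, chr4:58285960-58374303, plus strand, GRCm38). In vehicle-treated males it ranged from 11.8 to 21.7 CPM (median 16.9), and in corticosterone-treated males from 24.9 to 49.5 CPM (median 39.9). Every corticosterone-treated male exceeded every vehicle-treated male. The means were 16.4 ± 3.61 and 38.8 ± 8.54 CPM (SD, n = 6 each), a 2.36-fold increase (log2FC 1.24, SE 0.24, adjusted p = 0.000334). This call was made under every alternative setting and without any 1 mouse, with a log2FC from 1.16 to 1.38.

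In vehicle-treated females Musk ranged from 4.99 to 14.95 CPM (median 7.62), the highest value being that of F9. In the 5 corticosterone-treated females the level was 10.1 CPM in F10, 15.2 in F4, 17.0 in F8, 19.2 in F6 and 23.6 in F2. All 5 lay above the mean of the vehicle-treated females, but the groups overlapped because F9 exceeded F10. The means were 8.34 ± 3.71 (SD, n = 6) and 17.0 ± 4.97 CPM (SD, n = 5), a 2.04-fold increase (log2FC 1.03, SE 0.25, adjusted p = 0.00484). The call was lost without F2, F5, F6, F7 or F11, each left out alone, with adjusted p-values from 0.0121 to 0.0197. With the adipocyte marker score as a covariate the adjusted p was 0.0292 at a log2FC of 0.90, and without the 5 mice over 2000 CPM of adipocyte markers (F2, F3, F5, F6, F10), which leaves 2 corticosterone-treated females, it was 0.148 at the same log2FC. Without the 5 mice over 1000 CPM of hepatocyte markers the log2FC was 1.14 (adjusted p = 0.0134).

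The male and the female responses of Musk differed by 0.21 in log2FC (95% confidence interval -0.51 to 0.92, adjusted p = 0.701), so that no difference in response was detectable. The level itself was higher in males with either pellet. Among vehicle-treated mice the male level was 1.97-fold that of females (log2FC 0.98, SE 0.24), with an adjusted p of 0.0291 above the threshold and of 0.00315 without F9. That adjusted p reached 0.0987 among the alternatives. Among corticosterone-treated mice the male level was 2.28-fold (log2FC 1.19, SE 0.25, adjusted p = 0.00121), and all 6 males lay above all 5 females. This last call was lost with the Schwann cell score as a covariate (log2FC 1.05, adjusted p = 0.0787), without the mice high in hepatocyte markers (1.20, 0.0217) and without those high in adipocyte markers (1.28, 0.0328). The fits that left out mice had no smaller log2FC but fewer corticosterone-treated mice. The hepatocyte limit took out F6, F10, M8 and M12 of these mice, and the adipocyte limit F2, F6 and F10. In order of level the groups were vehicle-treated females, vehicle-treated males, corticosterone-treated females and corticosterone-treated males, and the range of vehicle-treated males lay within that of corticosterone-treated females. The methods do not say if the libraries of the sexes were made at the same time, so sex and such a batch cannot be told apart.

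Across the 9 genes, the response to corticosterone differed between the sexes for 0 at an adjusted p under 0.01 by edgeR, against 0.69% of all genes in either direction. Chrnb1 and Rapsn had an unadjusted p under 0.05, DESeq2 called 0 of the genes and limma-voom called 1, Chrnb1. Among vehicle-treated mice 0 of the 9 genes differed between the sexes by edgeR, against 0.69% of all genes that were higher and 0.268% that were lower in males. Musk alone had an unadjusted p under 0.05, and it was called by DESeq2 and by limma-voom. Among corticosterone-treated mice 2 of the 9 genes, Musk and Chrnb1, were higher in males and 0 were lower, against 9.31% and 14% of all genes. DESeq2 called 1 gene lower in males, Agrn, and 3 higher, Musk, Chrnb1 and Rapsn. These comparisons use the same mice as those with vehicle and are not independent of them.

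Chrnb1 encodes the beta subunit of the receptor (ENSMUSG00000041189, chr11:69784036-69795943, minus strand). In vehicle-treated males it ranged from 22.1 to 28.3 CPM (median 27.0), and in corticosterone-treated males from 42.8 to 54.5 CPM (median 50.3). The groups were far apart compared with their spread, and M5 was the lowest of the vehicle-treated males. The means were 26.3 ± 2.16 and 50.2 ± 4.24 CPM (SD, n = 6 each), a 1.91-fold increase (log2FC 0.94, SE 0.13, adjusted p = 8.15e-06). The gene stayed past the threshold without any 1 mouse and without the mice high in hepatocyte markers. It also passed without the mice high in adipocyte markers, but these were all female, so that fit left out no male. The part of adipocytes in the male difference was not tested by it. If a log2FC beyond 1 is also required, it is not called.

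Chrnb1 in females ranged from 22.1 to 38.0 CPM with vehicle (median 29.5) and with corticosterone was 26.8 CPM in F6, 29.5 in F10, 37.0 in F4, 38.7 in F2 and 50.3 in F8. F8 lay at the level of the corticosterone-treated males, while F6 and F10 lay below the vehicle mean of 29.6 CPM. The log2FC was 0.30 (SE 0.13, adjusted p = 0.0964). The difference between the responses of males and females was 0.63 in log2FC (SE 0.18, 95% confidence interval 0.25 to 1.02), with an adjusted p of 0.0325 that did not pass. Without F8 it was 0.78 (adjusted p = 0.00378), and without the mice high in hepatocyte markers 0.43 (adjusted p = 0.243). The direct comparison of corticosterone-treated mice, 1.38-fold higher in males, passed narrowly (log2FC 0.46, SE 0.13, adjusted p = 0.00958), although the groups overlapped. That call was lost in 27 of 36 alternatives, among them all fits that left out 1 mouse other than F5, F8, F9, M5 and M10, and its adjusted p rose to 0.361 with the Schwann cell score as a covariate.

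Chrne encodes the epsilon subunit of the adult receptor (ENSMUSG00000014609, chr11:70614883-70619216, minus strand). In males it ranged from 12.2 to 24.5 CPM with vehicle (median 18.9) and from 5.91 to 19.9 CPM with corticosterone (median 7.05). In 4 of the 6 corticosterone-treated males the level lay between 5.91 and 7.13 CPM, below every vehicle-treated male, whereas M12 had 14.3 and M2 19.9 CPM. The means were 18.3 ± 4.75 and 10 ± 5.76 CPM (SD, n = 6 each), with a log2FC of -0.87 (SE 0.34) and an adjusted p of 0.046, which did not pass. Without M2 the log2FC was -1.18 and passed (adjusted p = 0.00738). The adjusted p was highest without M8, at 0.102 (log2FC -0.755).

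In females Chrne ranged from 11.9 to 29.9 CPM with vehicle (median 17.3) and with corticosterone was 3.76 CPM in F4, 5.70 in F6, 7.18 in F2, 12.1 in F8 and 16.2 in F10. All 5 lay below the vehicle mean, F2, F4 and F6 below every vehicle-treated female. The means were 18.9 ± 6.25 (SD, n = 6) and 8.98 ± 5.08 CPM (SD, n = 5), with a log2FC of -1.07 (SE 0.36) and an adjusted p of 0.032, which did not pass. With the Schwann cell score as a covariate the log2FC was -1.34 and passed (adjusted p = 0.00637). Over the alternatives the adjusted p in females reached 0.17. Counting used the strand, and 4930544D05Rik on the opposite strand, which overlaps Chrne, shares 0 exon bases with it and had a median of 0 counts. The responses of the sexes differed by 0.20 (95% confidence interval -0.81 to 1.22, adjusted p = 0.797).

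Chrnd, which encodes the delta subunit, was the rarest of the genes tested, with 7 to 97 counts per mouse. The means with vehicle and corticosterone were 3.07 ± 1.11 (SD, n = 6) and 1.97 ± 1.54 CPM (SD, n = 5) in females, and 2.08 ± 0.63 and 1.4 ± 0.375 CPM in males (SD, n = 6 each). The log2FC was -0.64 (95% confidence interval -1.47 to 0.20) in females and -0.57 (-1.39 to 0.25) in males, and neither passed. All 6 corticosterone-treated males lay below the vehicle mean, as did 3 of the 5 corticosterone-treated females.

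Chrna1, which encodes the alpha subunit that binds acetylcholine, had a log2FC of 0.33 in males (SE 0.33, adjusted p = 0.441) and of -0.39 in females (SE 0.34, adjusted p = 0.423). In corticosterone-treated females the level was 3.902 CPM in F4, 11.3 in F6, 16.8 in F2, 19.6 in F8 and 26.8 in F10, compared with 10.1 to 33.9 CPM in vehicle-treated females. F4 was the lowest of all 23 mice. In males it ranged from 7.85 to 17.96 CPM with vehicle and from 13.4 to 24.8 CPM with corticosterone. The responses of the sexes differed by 0.72 (95% confidence interval -0.26 to 1.69, adjusted p = 0.297).

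Chrng, the fetal gamma subunit, had at most 20 counts in a mouse, in M6, and 13 in F6. In the other mice it had 0 to 7 counts, and 3 counts correspond to at most 0.144 CPM before scaling. Both groups of each sex were at or near that floor, so no fold change is given. In a fit of 31922 genes without the filter, the adjusted p was 0.394 in males and 0.639 in females. In each sex 1 corticosterone-treated mouse held most of the reads of its group.

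Of the agrin pathway, Lrp4, the receptor for agrin, ranged from 8.97 to 12.5 CPM in vehicle-treated males and from 6.57 to 9.85 CPM in corticosterone-treated males. All 6 corticosterone-treated males lay below the vehicle mean, with a log2FC of -0.38 (SE 0.12) and an adjusted p of 0.0116, just above the threshold. It passed without M6 (0.00461) or M11 (0.00881) and by DESeq2 (0.00823). It also passed without F6 (0.00617) and without the mice high in adipocyte markers (0.0098), fits that left out no male. The male log2FC hardly moved in these fits, at -0.376 and -0.368. Its adjusted p was highest, at 0.0557, without the mice high in hepatocyte markers (log2FC -0.29). In females all 5 corticosterone-treated mice lay below the vehicle mean as well, with a log2FC of -0.32 (SE 0.12, adjusted p = 0.0544). The difference between the sexes was -0.06 (95% confidence interval -0.41 to 0.28).

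Agrn, which encodes agrin, had a log2FC of -0.15 in males (SE 0.18, adjusted p = 0.514) and 0.26 in females (SE 0.18, adjusted p = 0.319). Among corticosterone-treated mice all 6 males, at 10.9 to 14.9 CPM, lay below all 5 females, at 15.1 to 26.5 CPM, with the highest level in F6. Of all genes, 5.55% had such groups that did not overlap with males lower, and 6.87% with males higher. The log2FC of males against females was -0.62 (SE 0.19, adjusted p = 0.0119), which passed without F2, F3, F8 or F9 (adjusted p 0.00452 to 0.00828). The summed Schwann cell markers ranged from 94.1 to 310 CPM in these females and from 46.4 to 99.1 CPM in these males, with overlap. With the Schwann cell score as a covariate the log2FC of Agrn was -0.32 (adjusted p = 0.424). The part of Schwann cells in the difference of Agrn was not tested, nor was it tested which cells the RNA of Agrn came from.

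Dok7, the activator of MuSK, did not pass in either sex, with a log2FC of 0.00 in males (95% confidence interval -0.41 to 0.41) and -0.21 in females (-0.64 to 0.22). In corticosterone-treated females F8 stood at 24.9 CPM, above every other mouse, while F2, F4 and F6 lay between 8.77 and 10.5 CPM. Without F8 the log2FC in females was -0.53 (adjusted p = 0.0183). Rapsn, the receptor anchor, had a log2FC of 0.23 in males (SE 0.12, adjusted p = 0.145) and -0.16 in females (SE 0.13, adjusted p = 0.37). All 6 corticosterone-treated males lay above the vehicle mean of 27.6 CPM. Gm13778, on the opposite strand, shares 4 exon bases with Rapsn and had a median of 9 counts. Corticosterone-treated males were 1.31-fold above corticosterone-treated females (log2FC 0.39, SE 0.13, adjusted p = 0.0193), a difference that passed without F8 (adjusted p = 0.00296) and by DESeq2 (adjusted p = 0.00801). Over the alternatives the adjusted p of this difference reached 0.519.

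Because subunits of 1 receptor are counted in the same library, their ratio within a mouse does not depend on library scaling. These ratios were chosen after the values had been seen and are given as a description without a test. Counts of Chrne were 0.909 to 1.73 times those of Chrna1 in vehicle-treated males (median 1.35) and 0.312 to 0.802 times in corticosterone-treated males (median 0.484), and the groups did not overlap. M2 and M12, which had high levels of Chrne, also had high counts of Chrna1, so that their ratios of 0.802 and 0.698 lay below those of all vehicle-treated males. In females the ratio was 0.719 to 1.18 with vehicle (median 0.913) and 0.427 to 0.963 with corticosterone (median 0.604), the highest of the latter being that of F4. The ratio of Chrnd to Chrna1 did not overlap in males either, with 0.110 to 0.190 against 0.0499 to 0.107. The gap was narrow, from 0.1105 in M7 to 0.1065 in M10. Chrnd had only 27 to 72 counts in vehicle-treated and 17 to 38 in corticosterone-treated males. The gap was not tested against counting error. In females it ranged from 0.113 to 0.186 with vehicle and from 0.0595 to 0.188 with corticosterone, and F8 was the highest of all. The ratio of Chrnb1 to Chrna1 overlapped in both sexes. It was 1.23 to 3.43 with vehicle and 1.99 to 3.81 with corticosterone in males, and 1.1 to 2.86 and 1.1 to 9.49 in females. Counts of Musk relative to Rapsn were 0.182 to 0.412 in vehicle-treated and 0.499 to 0.973 in corticosterone-treated females, and 0.419 to 0.828 against 0.875 to 1.47 in males, without overlap in either sex.

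**Figure D3:**
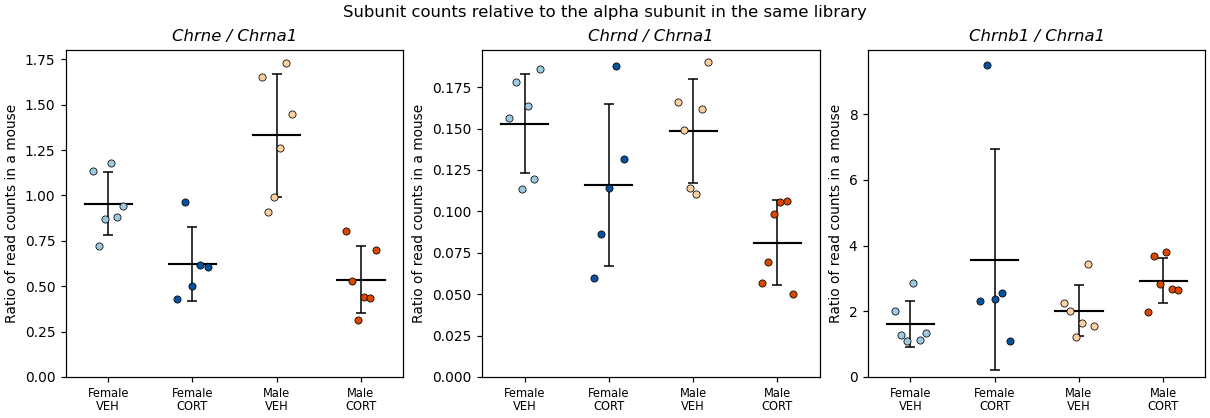
Ratio of the read counts of Chrne, Chrnd and Chrnb1 to those of Chrna1 in the same mouse (vertical axes, linear and from 0) by group, with 1 point for each mouse, a line at the mean and bars of 1 SD. For Chrne and Chrnd all 6 corticosterone-treated males lie below all 6 vehicle-treated males, for Chrnd by a narrow gap at low counts. For Chrnb1 the groups overlap in both sexes, and the mouse F4, at 9.49, stands apart.

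The receptor subunits also varied strongly between mice of a group. Among corticosterone-treated females the SD of log2 CPM was 1.07 for Chrna1, 1.37 for Chrnd and 0.84 for Chrne, where the median over all genes tested was 0.28. Among corticosterone-treated males it was 0.73 for Chrne and 0.35 for Chrna1, against a median of 0.21. Chrnb1 had an SD of 0.13 in each group of males, against medians of 0.20 and 0.21, but of 0.25 and 0.36 in vehicle-treated and corticosterone-treated females, above the medians of 0.21 and 0.28. F4 was lowest for Chrna1, Chrnd and Chrne at once, with 81, 7 and 78 counts, although its Musk and Chrnb1 levels were not the lowest of its group.

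These deviations were shared by some of the subunits. Over the 23 mice, after the mean of the group was taken off, Chrna1 and Chrne had a Pearson's r of 0.80 (permutation p = 3e-05, adjusted p = 0.00108 over 36 pairs) and a Spearman's rho of 0.83 (permutation p = 1e-05, the smallest that 100000 permutations within groups can give, adjusted p = 0.00036). Without F4 and F7, the mice farthest from the median of Chrna1, r was 0.76. Chrna1 and Chrnd had an r of 0.82 (permutation p = 0.00022, adjusted p = 0.00396), which was 0.66 without F4 and F7, and a rho of 0.66 whose adjusted p was 0.0652. For Chrnd and Chrne r was 0.61 with an adjusted p of 0.0864 by permutation, which did not pass. Chrnb1 did not follow the other subunits, with an r of 0.10 to Chrna1 (permutation p = 0.781), 0.13 to Chrnd and 0.20 to Chrne. Musk did not follow Chrna1 either, with an r of 0.05 (permutation p = 0.842) and a rho of 0.04 (permutation p = 0.887). For Agrn and Rapsn r was -0.68 (permutation p = 0.00311, adjusted p = 0.0373) and rho -0.54 (permutation p = 0.0194, adjusted p = 0.127), neither under 0.01, and r was -0.52 without F3 and F9. All values of a mouse come from 1 library, and the counts of Chrnd are low.

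**Figure D4:**
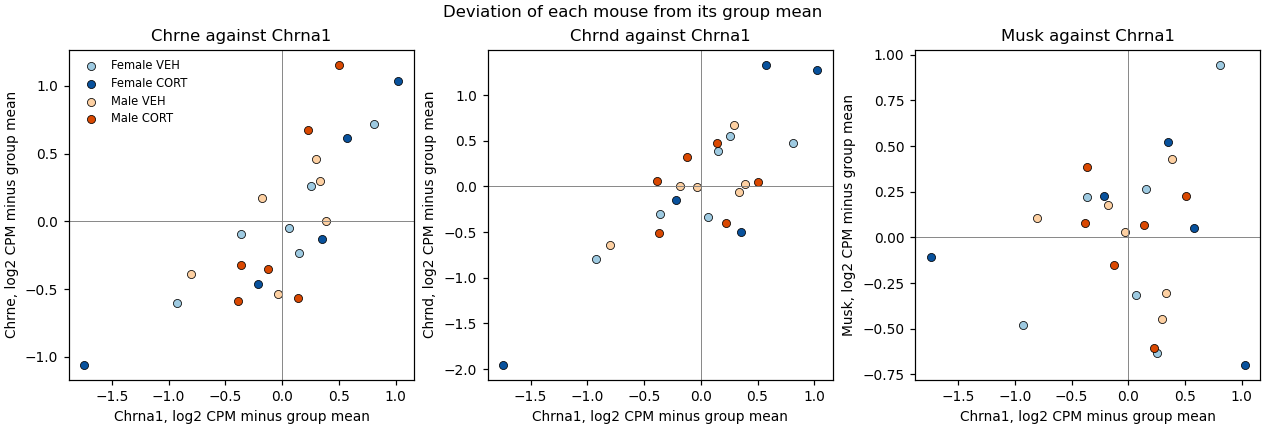
Deviation of each mouse from its group mean in log2 CPM for Chrne, Chrnd and Musk (vertical axes) against Chrna1 (horizontal axis), with 1 point for each of the 23 mice, coloured by group. Chrne and Chrnd rise with Chrna1 (r of 0.80 and 0.82), with F4 at the lower left in both, while Musk does not (r of 0.05).

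Genes with a pattern most like that of 3 of the members were looked up among the 13049 genes tested, by the mean absolute difference of the z-scored log2 CPM over the 23 mice, where 0 would be the same pattern. For Chrne they were Ufsp1 (0.245), Ache (0.249) and Rps6ka1 (0.298), compared with a median of 1.12 over all genes. Ache, acetylcholinesterase, the enzyme that breaks down acetylcholine at the synapse, ranged from 26.9 to 78.6 CPM in vehicle-treated and from 6.70 to 24.6 CPM in corticosterone-treated females. For Chrna1 they were Etv4 (0.470), Ncam1 (0.502) and Etv5 (0.506), a neural cell adhesion molecule and a pair of ETS transcription factors, compared with a median of 1.09. For Musk, Ppp2r2d (0.250) and Stab2 (0.255) were nearest, compared with a median of 1.16.

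Other genes of the junction were taken from lists by function. Their counts are to be read against the 13.2% of all genes that rose and 13.1% that fell in males, and the 7.4% and 6% in females. No test of a list as a whole was run. Of 11 scaffold genes, all tested, 2 rose and 1 fell in males, and 0 passed in females by edgeR, with 6 at an unadjusted p under 0.05. Dtna, alpha-dystrobrevin, rose in males by 0.99 in log2FC (SE 0.14, adjusted p = 1.08e-05), and its value in females was 0.43 (adjusted p = 0.0293). Dag1, dystroglycan, rose in males by 0.53 (SE 0.10, adjusted p = 0.00028), and Sntb2, beta-2-syntrophin, was lower in males with a log2FC of -1.02 (SE 0.16, adjusted p = 5.18e-05). The median log2FC of the 11 genes was 0.03 in males and 0.14 in females. The difference between the sexes passed for 0 of the 11 by edgeR, and 5 had an unadjusted p under 0.05.

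Of 9 genes of the synaptic matrix and of acetylcholine breakdown, 8 were tested, and 1 rose in males while 1 rose and 1 fell in females. Ache was lower in corticosterone-treated females without overlap between the groups (log2FC -1.32, SE 0.34, adjusted p = 0.00652), and its log2FC in males was -0.73 (SE 0.31, adjusted p = 0.068). Lamb2, laminin beta-2, a component of the synaptic basal lamina, rose in males by 0.44 (SE 0.09, adjusted p = 0.000778). Prelp, a proteoglycan of basement membranes, rose in females by 1.44 (SE 0.31, adjusted p = 0.00209), among the mice whose adipocyte markers ranged most widely, and their part in it was not tested.

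Of 12 partners of MuSK signalling, all tested, 2 rose and 2 fell in males and 2 fell in females. Vezt, which encodes the membrane protein vezatin, rose in males from 34.9 to 41.2 CPM to 55.0 to 66.9 CPM (log2FC 0.68, SE 0.08, adjusted p = 8.34e-07), its log2FC in females was 0.09, and the difference between the sexes passed (0.59, SE 0.11, adjusted p = 0.00781). Pak1, a kinase of the actin cytoskeleton, fell in both sexes, with a log2FC of -0.87 in males (SE 0.24, adjusted p = 0.00538) and of -1.23 in females (SE 0.25, adjusted p = 0.00126). Pdzrn3, a ubiquitin ligase that binds MuSK, was lower in females with a log2FC of -0.73 (SE 0.14, adjusted p = 0.000865), against -0.33 in males (adjusted p = 0.0483). Abl1, a tyrosine kinase, was lower in males with a log2FC of -0.54 (SE 0.13, adjusted p = 0.00222). Rac1, a small GTPase, named after its value had been seen, was the other riser in males, by 0.25 (SE 0.07, adjusted p = 0.00452).

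Of 13 genes known to respond to denervation, 12 were tested, and 3 rose and 1 fell in males while 1 rose and 1 fell in females. Myog, myogenin, a factor that binds E-boxes, ranged from 2.30 to 5.15 CPM in vehicle-treated males and from 6.48 to 15.8 CPM in corticosterone-treated males, without overlap (log2FC 1.76, SE 0.28, adjusted p = 5.05e-05). In females its log2FC was 0.73 (SE 0.28, adjusted p = 0.06), and the difference between the sexes was 1.03 (SE 0.40, adjusted p = 0.0834). Of 5 satellite cell markers, 1 was lower in males and 3 were lower in females, none had 0 reads in a whole group, and their summed level ranged from 17.3 to 27.2 CPM in vehicle-treated and from 12.5 to 19.7 CPM in corticosterone-treated males, and from 20.3 to 31.3 and from 9.19 to 21.4 CPM in females. Their part in the change of Myog was not tested. Cdkn1a, a cell cycle inhibitor, rose in males by 4.43 (SE 0.26, adjusted p = 3.73e-10) and in females by 2.89 (SE 0.24, adjusted p = 6.61e-07). Fgfbp1, which binds fibroblast growth factors, was lower in both sexes, with a log2FC of -2.49 in males (SE 0.43, adjusted p = 0.000108) and of -1.98 in females (SE 0.41, adjusted p = 0.00142). Gadd45a, a stress-induced gene, rose in males by 1.06 (SE 0.22, adjusted p = 0.000626) and had a log2FC of -0.57 in females (adjusted p = 0.0681), and the difference between the sexes passed (1.64, SE 0.32, adjusted p = 0.0083). The products of Chrng and Chrna1 return to the whole fiber surface after denervation. Chrna1 did not pass in either sex, and neither did Ncam1 (log2FC 0.39 in males and -0.49 in females). Chrng failed the filter on low counts and lay near the floor, so its response could not be judged.

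Of 8 genes of neuregulin signalling and ETS transcription, 6 were tested and 0 passed in either sex by edgeR, with 0 at an unadjusted p under 0.05. Of 5 glycosylation genes that are mutated in congenital myasthenic syndromes, 1 was lower in males, Dpagt1 (log2FC -0.37, SE 0.07, adjusted p = 0.000262), and 0 passed in females by edgeR, with 2 at an unadjusted p under 0.05. Of 11 nicotinic receptor subunits of neurons and sensory cells, 2 were tested. Chrna9 had 0 to 8 counts in vehicle-treated males and 20 to 76 in corticosterone-treated males (adjusted p = 0.000805), and no fold change is given because the vehicle-treated males lay near the floor of 3 counts. In females it had 3 to 98 counts with vehicle and 14 to 59 with corticosterone. The difference of the sexes for Chrna9 did not pass (adjusted p = 0.0279).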

How the data were processed

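Quadriceps RNA of 23 mice was prepared by the authors as stranded mRNA libraries and sequenced in pairs. Read pairs were aligned by the authors to mm10 with STAR 2.7.3a and counted per Ensembl gene by strand with HTSeq 0.12.4, and the deposited values are raw counts. The 5 summary entries of unassigned reads (10.7% to 15.3% of read pairs per mouse) were left out. GENCODE M21 on GRCm38 gave names for 55480 of 55573 gene IDs.

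Counts were tested in R 4.3.3 with edgeR 4.0.16 (quasi-likelihood test, TMM, 1 model with a mean per group). The 13049 genes with over 20 median-of-ratios counts in at least 4 mice of 1 group were tested, with Benjamini-Hochberg adjustment and a threshold of 0.01. The log2 CPM values used a prior count of 1. Alternatives were DESeq2 1.42.0, limma-voom (limma 3.58.1), other filters and scalings, each sex alone, marker scores as covariates, a replicate block and leaving out each mouse. On simulated counts of 13049 genes, edgeR recovered 76.0% of 200 changed genes in males, 77.5% in females, and 63.2% of 400 for the interaction. The changes put into the simulation had a size of at least 1 in log2FC. Most changes of the members were smaller, and the recovery of such changes was not simulated. A count of 3 corresponds to at most 0.144 CPM, and counting error is the only error this covers. No 2 replicates differed by less than sampling noise (lowest chi-square per degree of freedom 15.0).

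The members, gene lists and tests were chosen with earlier results of these data known. All members are named, with at most 4 passing genes of each list (and Rac1, chosen after its value was seen), and the 3 genes most like Chrna1, Chrne and Musk. Something these rules would name is not reported here. Protein sequences were not used here.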

Additional observations from a re-analysis of the deposited data

Results flagged for a closer look

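The highest and lowest mouse of each group were compared with the others of the group by Dixon's test for each of the 10 genes, 40 groups in all, and 3 mice stood out, where chance gives about 1 in 20 groups. Chrnb1 in M5, a vehicle-treated male, had 22.1 CPM (432 counts), below the other vehicle-treated males. Chrng in F3, a vehicle-treated female, had 0.300 CPM from 7 counts. Chrng in M6, a corticosterone-treated male, had 1.0001 CPM from 20 counts, more than in any other mouse.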

How the results depend on the processing

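The counts of members called and 27 results, each of 1 of the 9 tested genes in 1 comparison, were each recomputed under 36 alternatives. These were the 9 members in each sex, the interaction for Chrnb1, Musk, Rapsn and Chrne, Musk between the sexes with vehicle, and Musk, Chrnb1, Agrn and Rapsn between the sexes with corticosterone. The genes of the junction lists had no alternative run. Of the alternatives 2, leaving out the mice high in adipocyte or in hepatocyte markers, were added after seeing the data. Of the recomputed values of these 27 results, 880 kept their direction and side of the threshold, 41 were no longer past it, 29 passed only then, and 22 changed sign. Males: the count of genes that rose was 1 with the log2FC limit and otherwise 2. The count that fell in males (0) was 1 by DESeq2, by limma-voom and without the mice high in adipocyte markers, which were all female. It was 2 at a threshold of 0.05 and 0 to 1 when 1 mouse was left out. Females: the count that rose (1) was 0 with no filter, each sex fitted alone, the adipocyte score as a covariate, and without the mice high in adipocyte or in hepatocyte markers, and 0 to 1 with 1 mouse left out, while 1 fell at 0.05 and with the Schwann cell score. Interaction: 1 by limma-voom and at 0.05, and 0 to 1 with 1 mouse left out. Between the sexes with vehicle: 1 by DESeq2, by limma-voom and at 0.05, and 0 to 1 with 1 mouse left out (1 without F9). Between the sexes with corticosterone, the count higher in males (2) was 3 by DESeq2 and at 0.05, 1 with filterByExpr, no filter, the log2FC limit, and the adipocyte or hepatocyte score, 0 with the Schwann cell score and without the mice high in adipocyte or in hepatocyte markers, and 1 to 4 with 1 mouse left out (4 without F8), and the count lower was 1 by DESeq2 and at 0.05 and 0 to 1 with 1 mouse left out. The cause of these changes was not tested.

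Values that changed sign were near 0. For Dok7 in males (-0.001) they were 0.008 by DESeq2 and with the median of ratios, 0.044 by limma-voom, 0.007 with no filter, 0.014 with each sex alone, 0.029 and 0.001 with the hepatocyte and Schwann cell scores, 0.116 and 0.011 without the mice high in hepatocyte and adipocyte markers, and -0.066 to 0.098 with 1 mouse left out. Dok7 in females was 0.103 without the mice high in adipocyte markers. The interaction of Musk was -0.054 by limma-voom and -0.04 to 0.354 with 1 mouse left out, and that of Chrne -0.111 to 0.548.

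Mice of the sexes share numbers. Of 11 same-numbered pairs, 7 had a correlation over 0.1 between their deviations from the group means (range -0.377 to 0.477). Pairs of unlike number were not compared, so this does not decide whether the numbers pair the mice. With the replicate block, which could be fitted for comparisons between the sexes alone, Musk passed with vehicle (log2FC 1.05, adjusted p = 0.00805), 1 call where there had been 0, Chrnb1 did not pass with corticosterone (0.47, 0.0109) and Rapsn did (0.44, 0.0029). Depth limits Chrng and Chrnd, which had at most 20 and 97 counts.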
